A study of Mus musculus with 6 samples.

Results

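The genes described here are 10 transcription factors that keep radial glia-like neural stem cells: Nr2e1, Sox2, Sox9, Hopx, Pax6, Emx2, Lhx2, Nfia, Nfib and Nfix. They were taken by symbol from a table of 55471 genes, and all 10 were found. RNA came from cells of the subgranular zone (SGZ), the layer of the dentate gyrus that holds stem cells and their neuronal progeny, of mice at postnatal day 35. There were 3 biological replicates of NTG;Nestin-YFP mice and 3 of 3xTg;Nestin-YFP mice, and the labels give the strain B6129SF2/J for both. 3xTg-AD mice carry mutant genes of familial disease, among them human APP and MAPT, and serve as a model of Alzheimer's disease, whereas NTG mice are wild type. The wild-type mice were kept as a colony of their own, so that genotype and colony cannot be told apart. Both groups carried Nestin-CreERT2, driven by the Nestin promoter and its second-intron enhancer, and the ROSA26-EYFP reporter, and both received tamoxifen by gavage. FACS was done 10 days after tamoxifen and took YFP-positive cells that had stayed free of propidium iodide, which stains dead cells. The label is permanent, so that cells born from Nestin-expressing cells within those days carry it as well. It is not stated how many animals made up a replicate.

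Radial glia-like stem cells of the dentate gyrus rest for long periods and share much of their expression with astrocytes. Sox2, a SOX-family factor, keeps them multipotent and switches on Nr2e1 (also called Tlx), an orphan nuclear receptor that represses genes of differentiation and growth arrest. Sox9 is required for stem cells to form and for the start of gliogenesis, and it acts upstream of Nfia, one of the nuclear factor I (NFI) proteins that open the astrocyte programme. Hopx is a small homeodomain protein that lacks DNA binding and marks quiescent stem cells of the dentate gyrus. Emx2, Lhx2 and Pax6 pattern the embryonic cortex, and Emx2 and Lhx2 are needed for the hippocampus to form.

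Assigned reads numbered 32731794 to 42576455 per NTG library and 53063475 to 81800375 per 3xTg library, so that every 3xTg library was deeper. Along principal component 1, which held 48.5% of the variance, 3xTg replicate 1 lay nearest to the NTG libraries. Fold changes of all genes went with the GC content of the transcript (Spearman's rho -0.43 across 18644 genes, which are not independent replicates). The sorted cells were described with sums of marker lists. The 30 radial glia markers summed to 2910114 to 3992538 normalized counts per library. The sums were 643417 to 868875 for 12 mature astrocyte markers and 7489 to 10798 for 12 mature neuron markers. These lists differ in size, and the sums were not corrected for gene length. As radial glia-like cells share much of their expression with astrocytes, the sums cannot tell stem cells from astrocytes. Nes, the gene whose promoter drives the Cre, stood at 925 ± 72 normalized counts (SD, n = 3) in NTG and 826 ± 86 in 3xTg. The 12 oligodendrocyte lineage markers, which this sort was not aimed at, summed to 335893 to 728650, with the lowest sum in NTG replicate 3. The cells are therefore described by the sort and not as pure stem cells. Mouse App and Mapt had log2 fold changes of -0.02 and -0.03, which did not pass the limma test, and the human transgenes were not measured as such.

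In 3xTg cells Nfia rose and Nr2e1 fell, and the other 8 factors did not pass the test. All 10 genes were among the 18664 whose mean normalized count reached 10, for which the groups were tested on the scale log2(normalized count + 1) with limma. Fold changes are given as 3xTg over NTG, and a call needed both a Benjamini-Hochberg adjusted p below 0.05 and more than 0.5, in either direction, on the log2 scale. By this rule 1.13% of all tested genes were called higher and 1.67% lower, 2.80% in either direction, against 1 of 10 factors in each direction. At an unadjusted limma p under 0.05 stood 6 factors, 1 higher and 5 lower, against 23.5% of all tested genes. The same count of 6 had groups that did not overlap: Nfia was higher in every 3xTg library, and Nr2e1, Sox2, Sox9, Hopx and Emx2 were lower in every one. Over all genes the groups did not overlap in 27.7%, with 15.1% higher and 12.6% lower. The median log2 fold change of the 10 factors was -0.26, beside 0.01 for all tested genes. With the GC trend removed these medians were -0.14 and 0.03. The edgeR test called 1 factor higher and 1 lower (1.22% and 1.62% of all genes), as did limma with the GC trend removed (1.06% and 1.61%). DESeq2 called 1 higher and 2 lower, with 3.33% and 4.1% of all genes. Sample weights gave 1 higher and 3 lower (6.41% and 7.54%), and so did the fit without 3xTg replicate 1 (5.14% and 5.74%). In RNA of a sorted pool, fewer cells of a type and less RNA per cell cannot be told apart.

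**Figure D1:**
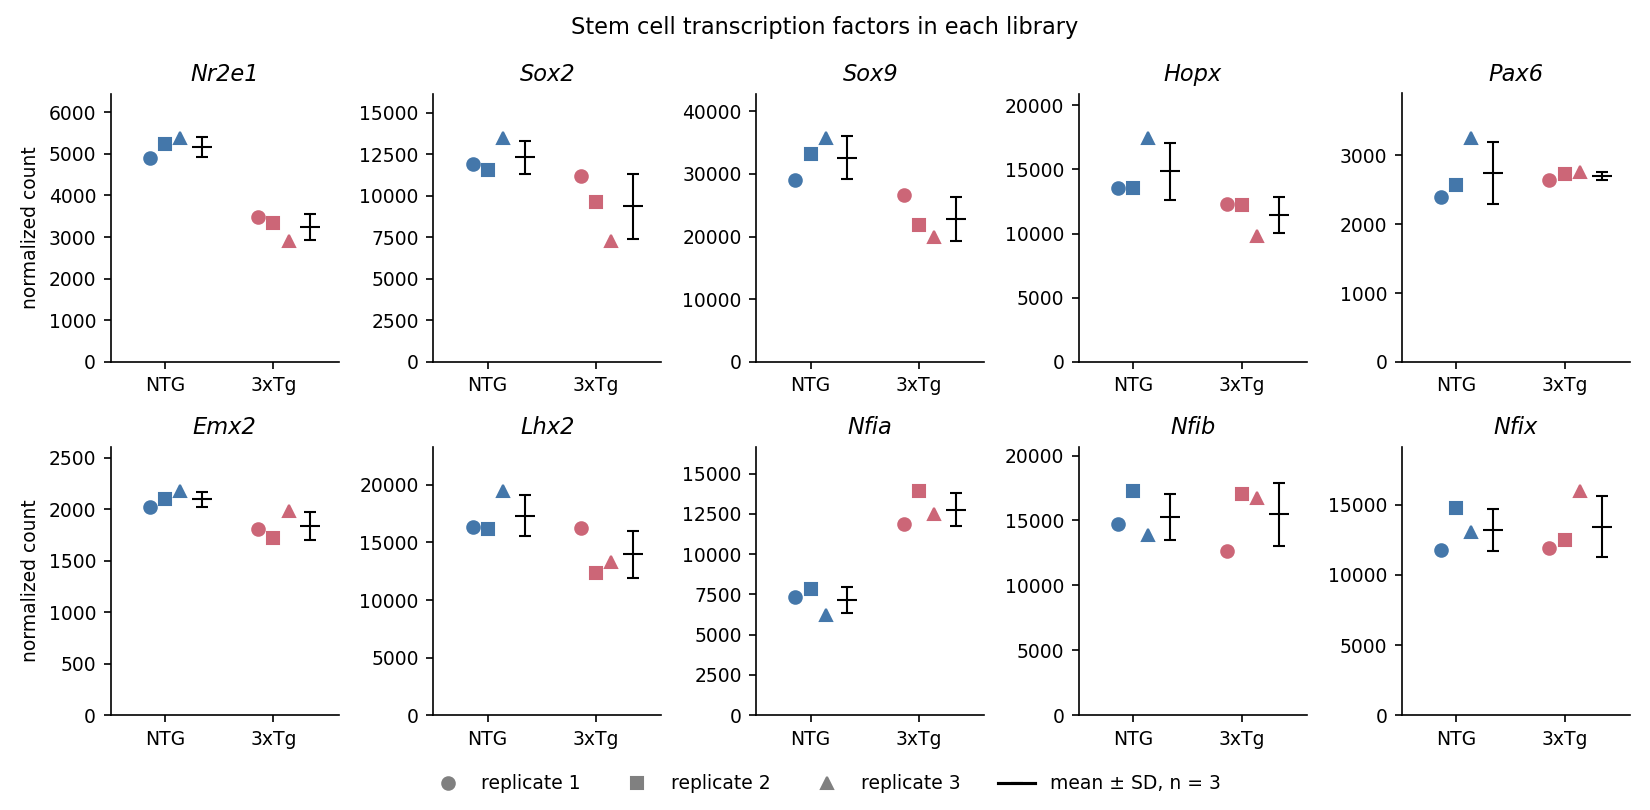
Normalized counts (axes from 0) of the 10 transcription factors in each library. Points are libraries, with the shape giving the replicate number, and the black mark beside them is the mean ± SD (n = 3). The Nr2e1 points of 3xTg (2902 to 3489) all lie below those of NTG (4907 to 5373), and the Nfia points of 3xTg (11879 to 13899) all lie above those of NTG (6239 to 7832).

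**Figure D2:**
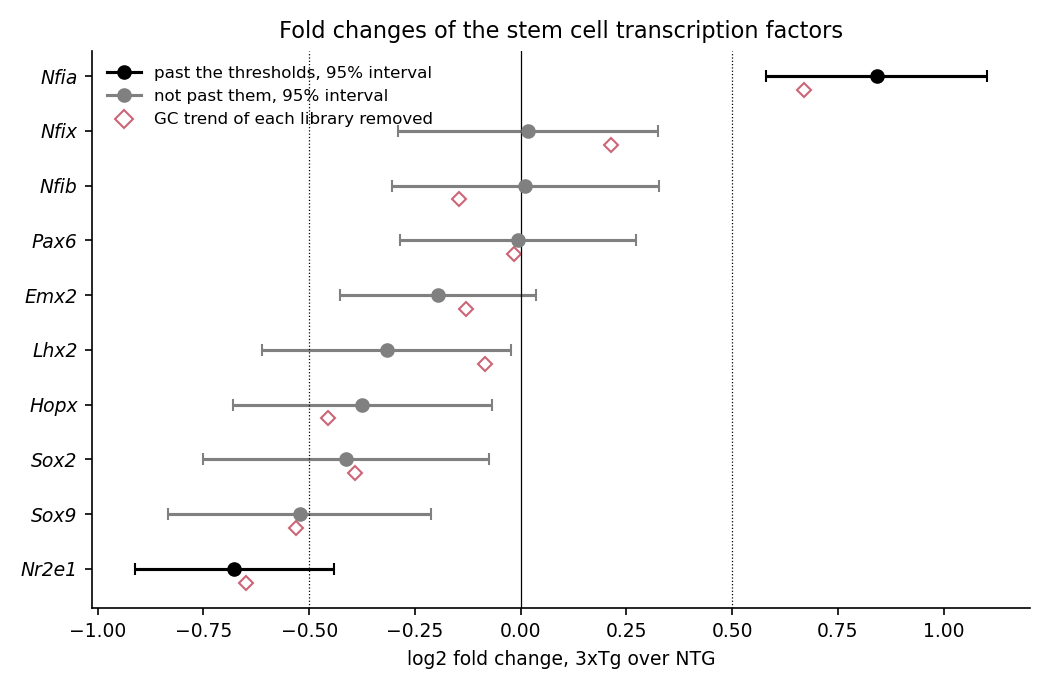
Log2 fold changes of the 10 transcription factors, 3xTg over NTG, on log2(normalized count + 1). Circles give the limma estimate with its 95% interval, black where the gene passed both thresholds. Diamonds give the estimate after the GC trend of each library was removed, and dotted lines mark a log2 fold change of 0.5 in size. Nfia (0.84) and Nr2e1 (-0.68) are the black circles, and Lhx2 moves from -0.32 to -0.08 without the trend.

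Nr2e1 (ENSMUSG00000019803, chr10:42561963-42583632 of GRCm38, minus strand) was the factor called lower. Its normalized counts were 4907, 5232 and 5373 in the NTG libraries and 3489, 3335 and 2902 in the 3xTg libraries. The lowest NTG library thus stood well above the highest 3xTg library, and the coefficients of variation within the groups were 4.63% and 9.38%. The mean fell from 5171 ± 239 (SD, n = 3) to 3242 ± 304, or to 62.7% of the NTG mean. The log2 fold change was -0.68 (SE 0.11, 95% interval -0.91 to -0.44, limma adjusted p 0.0095), and the gene ranked 157 of 18664 by p. It was called in 19 of 20 other fits. Without 3xTg replicate 3, the library with its lowest count, the log2 fold change was -0.60 and the adjusted p 0.0627. The transcript has a GC content of 50.7%, near the middle of the tested genes, and the value without the GC trend was -0.65 (limma adjusted p 0.0073). The 300 bases around its RefSeq start (GRCm38.p6, chr10:42583541-42583840, minus strand, 250 before and 50 after the start) are shown because the gene is one of the 2 that passed. Their GC content is 58.0% and they hold 19 CpG. Capitals mark the Sox core ACAAAG at position 5 after the start and the Nr2e1 motif AAGTCA at position 8, which share bases.
Nr2e1: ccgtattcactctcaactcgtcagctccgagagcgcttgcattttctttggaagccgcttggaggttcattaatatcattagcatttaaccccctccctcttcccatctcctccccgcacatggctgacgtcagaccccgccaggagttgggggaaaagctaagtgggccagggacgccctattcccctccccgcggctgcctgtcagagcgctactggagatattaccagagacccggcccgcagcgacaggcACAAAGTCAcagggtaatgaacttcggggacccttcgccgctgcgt
Of 32851 RefSeq mouse promoters of this length, 18.7% hold ACAAAG and 15.1% hold AAGTCA on either strand. The other sequences searched, on both strands, were the NFI core TTGGC (46.7% of promoters), a further Sox core ACAATG (12.6%) and the homeodomain core TAATTA (5.29%). They were not in this window.

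Nfia (ENSMUSG00000028565, chr4:97772734-98118874, plus strand) was the factor called higher. It had 7339, 7832 and 6239 normalized counts in NTG and 11879, 13899 and 12499 in 3xTg. No library of either group came near the range of the other. The mean rose from 7137 ± 816 (SD, n = 3) to 12759 ± 1035, or 179% of the NTG mean. Its log2 fold change was 0.84 (SE 0.12, 95% interval 0.58 to 1.10, limma adjusted p 0.0052, rank 113 by p). All of 20 other fits called it, with log2 fold changes of 0.66 to 0.91 and adjusted p-values of at most 0.0353. Nfia transcripts are poor in GC (42.7%, at the 16.0th percentile of tested genes), and genes of low GC content tended to be higher in 3xTg: with genes split into 5 bins by GC content, the median log2 fold change was 0.25 in the bin poorest in GC and -0.20 in the richest. With the trend removed Nfia stood at 0.67 (limma adjusted p 0.0038). RefSeq places its start at chr4:97581943, 190791 bases before the start of the gene in the annotation used here. The promoter at that start (GRCm38.p6, chr4:97581693-97581992, plus strand) is shown for the same reason as that of Nr2e1, with the Sox core ACAATG, read on the other strand, in capitals 92 bases before the start.
Nfia: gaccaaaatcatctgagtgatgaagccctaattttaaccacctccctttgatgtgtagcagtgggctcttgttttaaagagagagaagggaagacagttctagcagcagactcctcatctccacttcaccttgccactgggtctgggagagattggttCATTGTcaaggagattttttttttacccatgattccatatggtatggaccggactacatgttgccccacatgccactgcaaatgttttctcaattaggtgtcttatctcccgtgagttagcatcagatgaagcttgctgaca
This window differs from that of Nr2e1 in its GC content of 44.7% and its 2 CpG, beside a median GC content of 52.7% over all promoters. Whether these cells use this start of Nfia was not tested, so that the window may not be the promoter at work in them.

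None of the other NFI genes passed the test. Nfib (chr4:82290173-82705750, minus strand), which lies on the same chromosome and works with Nfia in glial differentiation, had 14738, 17234 and 13856 normalized counts in NTG and 12653, 17017 and 16731 in 3xTg. Its log2 fold change was 0.01 (95% interval -0.30 to 0.33, limma adjusted p 0.97). Nfix (chr8:84699876-84800344, minus strand), known to hold stem cells in quiescence, had 11785, 14766 and 13078 in NTG and 11897, 12466 and 15948 in 3xTg. The groups overlapped for both, and the log2 fold change of Nfix was 0.02 (95% interval -0.29 to 0.33, limma adjusted p 0.95). Both signs turned under upper quartile scaling (-0.030 for Nfib and -0.022 for Nfix), and without the GC trend Nfib was at -0.15 and Nfix at 0.21 (limma adjusted p 0.45). With 3xTg replicate 1 left out as well Nfix was at 0.36 (limma adjusted p 0.119), in the direction of Nfia. Nfic, the remaining member of the family and none of the 10, went from 6205 ± 331 to 4995 ± 696 (log2 fold change -0.32, limma adjusted p 0.15), and was at -0.12 without the GC trend (limma adjusted p 0.459).

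Within a library the balance of the NFI family can be read free of the scaling. These ratios were chosen after the values were seen, were not tested and still hold the GC trend. The ratio of Nfia to Nfib counts was 0.498, 0.454 and 0.450 in the NTG libraries and 0.939, 0.817 and 0.747 in the 3xTg libraries, with no overlap. Per kilobase of exon, Nfia made up 14.9% ± 1.40 (SD, n = 3) of the 4 NFI genes in NTG and 24.5% ± 2.32 in 3xTg. Nfix had the highest share in each group, 40.7% ± 1.74 and 38.0% ± 3.37. The order of the shares depends on the exon length used, which joins all annotated exons of a gene. The share of Nfib was 23.1% ± 1.19 and 21.5% ± 2.37, and that of Nfic 21.3% ± 1.69 and 15.9% ± 3.18. Summed per kilobase, the 4 genes stood at 4144 to 4827 in the NTG libraries and at 4418 to 5180 in the 3xTg libraries, which overlapped.

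Sox9 (ENSMUSG00000000567, chr11:112782224-112787760, plus strand) had 28977, 33185 and 35693 normalized counts in NTG and 26688, 21840 and 19863 in 3xTg. Its groups did not overlap, although the highest 3xTg library came close to the lowest NTG library. The mean was 32618 ± 3394 (SD, n = 3) in NTG and 22797 ± 3512 in 3xTg, a log2 fold change of -0.52 (SE 0.14, 95% interval -0.83 to -0.21) that missed the threshold (limma adjusted p 0.0776). The call changed with 1 library: without 3xTg replicate 1 it was -0.64 (limma adjusted p 0.0172). Without 3xTg replicate 3 it was -0.43 (limma adjusted p 0.268), and without 3xTg replicate 2 -0.50 (0.289). DESeq2 on the recovered reads also called Sox9 (adjusted p 0.011), whereas edgeR did not (adjusted p 0.081).

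Sox2 (ENSMUSG00000074637, chr3:34650405-34652461, plus strand) had 11930, 11551 and 13471 in NTG and 11186, 9608 and 7311 in 3xTg. Every 3xTg library was below every NTG library, but 3xTg replicate 1 only narrowly so. The mean was 12317 ± 1017 (SD, n = 3) against 9369 ± 1949, and the coefficient of variation was 8.25% in NTG and 20.8% in 3xTg. Its log2 fold change of -0.41 (SE 0.15, 95% interval -0.75 to -0.07) did not pass (limma adjusted p 0.149). It passed without 3xTg replicate 1 (-0.55, limma adjusted p 0.0360) and with sample weights (-0.58, limma adjusted p 0.0087). The weights were 0.41 for 3xTg replicate 1 and 3.18 for 3xTg replicate 3, so that both fits lean away from 3xTg replicate 1. Without 3xTg replicate 3 Sox2 was at -0.25 (limma adjusted p 0.41), and without NTG replicate 3 at -0.35 (0.28). The Sox2 promoter (GRCm38.p6, chr3:34649745-34650044, plus strand) is shown because Sox2 is among the markers the study counted in tissue. In capitals are ACAAAG 206 bases before the start and the NFI core TTGGC 45 bases before it.
Sox2: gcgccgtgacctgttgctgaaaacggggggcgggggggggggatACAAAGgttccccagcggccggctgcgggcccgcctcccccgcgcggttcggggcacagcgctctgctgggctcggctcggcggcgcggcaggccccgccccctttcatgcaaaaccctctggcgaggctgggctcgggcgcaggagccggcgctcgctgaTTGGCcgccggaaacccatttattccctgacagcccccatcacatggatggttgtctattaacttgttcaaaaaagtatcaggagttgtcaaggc
Its GC content of 66.3% and its 27 CpG exceed those of the Nr2e1 window. RefSeq promoters of Sox9 and Nfib were not used here.

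Hopx (ENSMUSG00000059325, chr5:77086988-77115121, minus strand) had 13573, 13578 and 17429 in NTG and 12318, 12197 and 9816 in 3xTg. The groups did not overlap, with NTG replicate 3 well above the rest. The mean was 14860 ± 2225 (SD, n = 3) against 11444 ± 1411, a log2 fold change of -0.37 (SE 0.14, 95% interval -0.68 to -0.07, limma adjusted p 0.149). No other fit called it, although with sample weights the adjusted p was 0.0189 at a log2 fold change of -0.42, short of the fold threshold. The study stained tissue, counted cells that carry both Hopx and Sox2, and found fewer in 3xTg mice. Here the ratio of their RNA counts was compared within libraries, which does not measure how many cells carry both. The ratio was 1.14, 1.18 and 1.29 in NTG and 1.10, 1.27 and 1.34 in 3xTg. The difference in the mean log2 ratio was 0.04 with a two-sided exact permutation p of 0.8, where 0.1 is the smallest p that 3 against 3 libraries allow. The ranges of the groups overlapped almost wholly. The Hopx promoter at its outermost RefSeq start (GRCm38.p6, chr5:77115074-77115373, minus strand) holds the NFI core in capitals 160 bases before the start.
Hopx: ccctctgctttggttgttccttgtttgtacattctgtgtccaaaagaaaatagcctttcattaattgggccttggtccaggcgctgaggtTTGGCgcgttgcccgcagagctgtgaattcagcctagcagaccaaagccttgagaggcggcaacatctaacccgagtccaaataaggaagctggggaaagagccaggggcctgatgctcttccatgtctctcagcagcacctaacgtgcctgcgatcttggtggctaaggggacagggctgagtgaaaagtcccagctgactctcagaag
This window has a GC content of 53.0% and 8 CpG, and that at the other Hopx start, 19854 bases into the gene, 59.0% and 21 CpG with none of the 5 sequences searched.

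Lhx2 (chr2:38339281-38369733, plus strand), a LIM-homeodomain factor, had 16373, 16205 and 19423 normalized counts in NTG and 16275, 12337 and 13293 in 3xTg. 3xTg replicate 1 lay within the NTG range. Its log2 fold change was -0.32 (SE 0.13, 95% interval -0.61 to -0.02, limma adjusted p 0.188). Lhx2 has the transcript richest in GC of the 10 (58.5%, at the 92.2nd percentile of tested genes), and without the GC trend its value was -0.08 (limma adjusted p 0.634). The GC content moved with this value, and its part in it was not otherwise tested. Emx2 (chr19:59458372-59465357, plus strand), a homeodomain factor of the hippocampal primordium, had 2023, 2095 and 2171 in NTG and 1803, 1717 and 1981 in 3xTg. These groups lay close together without overlapping, and the log2 fold change of -0.20 (95% interval -0.43 to 0.04) did not pass (limma adjusted p 0.281). Pax6 (chr2:105668900-105697364, plus strand), a paired-box factor of neuronal progenitors, had 2397, 2572 and 3246 in NTG and 2640, 2723 and 2749 in 3xTg. Its 3xTg libraries all lay inside the NTG range, with a log2 fold change of -0.01 (95% interval -0.28 to 0.27, limma adjusted p 0.98). The ratio of Nr2e1 to Pax6, chosen after the values were seen and not tested, was 2.05, 2.03 and 1.66 in NTG and 1.32, 1.22 and 1.06 in 3xTg.

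**Figure D3:**
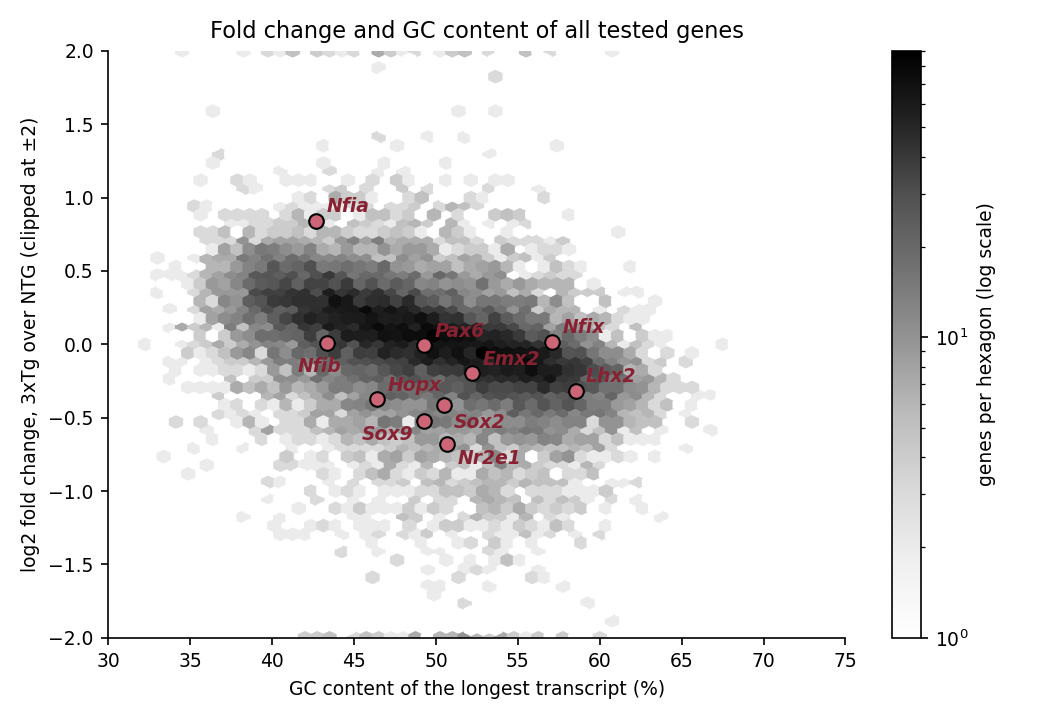
Log2 fold change (3xTg over NTG, clipped at 2 in size) against the GC content of the longest transcript (%) for all tested genes, with the number of genes per hexagon in grey on a log scale. Red points are the 10 transcription factors. Of the red points Nfia (42.7% GC) is the highest and Nr2e1 (50.7% GC) the lowest, and Lhx2 (58.5% GC) lies furthest to the right. Other genes lie further from 0 than any of them.

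Levels were compared between the factors per kilobase of exon. The length joins all annotated exons of a gene, from 1516 bases for Hopx to 14957 for Nfib. It may exceed that of the transcripts present in these cells, and the order depends on it. In NTG the order of mean normalized counts per kilobase was Hopx (9802), Sox9 (7888), Sox2 (5988), Lhx2 (3946), Nfix (1797), Nr2e1 (1393), Nfib (1021), Emx2 (698), Nfia (655) and Pax6 (234). The ranges of neighbours in this order were clear of each other, except for Emx2 and Nfia, which overlapped. In 3xTg the first 5 kept this order, at 7549, 5513, 4554, 3180 and 1828, with overlap between Sox9 and Sox2 and between Sox2 and Lhx2. They were followed by Nfia (1171), Nfib (1034), Nr2e1 (874), Emx2 (611) and Pax6 (231). In 3xTg the range of Nfia overlapped that of Nfib, and that of Nfib overlapped that of Nr2e1. The ratio of Nfia to Nr2e1 counts was 1.50, 1.50 and 1.16 in NTG and 3.40, 4.17 and 4.31 in 3xTg. It was chosen after the values were seen and joins the 2 called genes, so that it adds no test.

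Libraries differed within each group. NTG replicate 3 had the highest value of its group for 7 of the 10 factors, and the 10 together summed to 114041, 124250 and 129978 normalized counts in NTG. In 3xTg they summed to 110827, 107138 and 103093, all below NTG, and 3xTg replicate 1 was the highest of its group for 5 factors. Across the 6 libraries the log2 levels of Nr2e1 went with those of Sox9 (Pearson's r 0.95) and against those of Nfia (-0.95), and those of Sox2 with Hopx (0.93) and Sox9 (0.92). These are descriptions over 6 libraries that share the group difference, the scaling and the depth. Leaving out NTG replicate 1, 2 or 3 changed the call of none of the 10 factors.

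**Figure D4:**
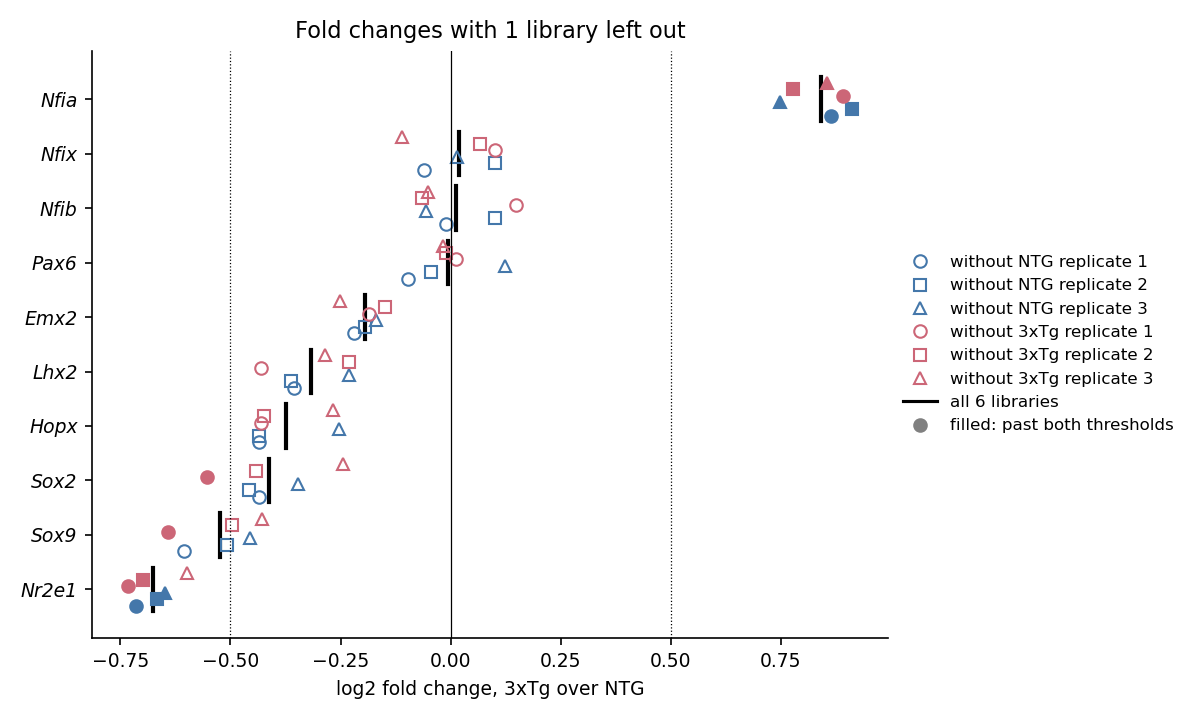
Log2 fold changes (3xTg over NTG) of the 10 transcription factors with each library left out in turn. Blue symbols leave out an NTG library and red symbols a 3xTg library, filled symbols passed both thresholds, and black bars give the value with all 6 libraries. Nfia is filled throughout (0.75 to 0.91), Nr2e1 is open without 3xTg replicate 3 (-0.60), and Sox9 (-0.64) and Sox2 (-0.55) are filled without 3xTg replicate 1.

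The partners of these factors were followed with a list of 22 cofactors and chromatin proteins, all tested, with a median log2 fold change of 0.05. Hdac5, a class IIa histone deacetylase that works as a corepressor of Nr2e1, was the 1 that passed. It had 6376, 6423 and 6835 normalized counts in NTG and 4396, 4122 and 4442 in 3xTg, with the groups far apart. Its mean fell from 6545 ± 252 (SD, n = 3) to 4320 ± 173 (log2 fold change -0.60, SE 0.09, limma adjusted p 0.0095). The call was lost without the GC trend (-0.33, adjusted p 0.096), without 3xTg replicate 2 (-0.57, adjusted p 0.058) and without 3xTg replicate 3 (-0.62, adjusted p 0.052). The other corepressors of Nr2e1 had limma log2 fold changes of -0.01 for Hdac1, 0.06 for Hdac3 and 0.28 for Kdm1a (Lsd1), and none of these passed.

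A list of 36 other stem cell factors had a median of -0.20, with 28 genes below 0, beside the median of 0.01 over all tested genes. With the GC trend removed these medians were -0.09 and 0.03. In 10 of the 36 factors the 3xTg libraries were all lower, and in 2 all higher, beside 12.6% and 15.1% of all tested genes. Foxo3, a forkhead factor that guards quiescence, rose from 922, 750 and 701 normalized counts in NTG to 2379, 1791 and 2214 in 3xTg. The 3xTg levels were thus all above the NTG levels, with a log2 fold change of 1.43 (SE 0.15, limma adjusted p 8.9e-04), and each of 20 other fits called it. Sox8, a SOX factor of glial cells and a close relative of Sox9, fell from 9175 ± 363 (SD, n = 3) to 5625 ± 758 (log2 fold change -0.71, SE 0.12, limma adjusted p 0.013). It missed the threshold by little without NTG replicate 1 (adjusted p 0.051), without NTG replicate 2 (0.051) and without 3xTg replicate 2 (0.050). The Id genes, inhibitors of basic helix-loop-helix factors, and Heyl, an effector of Notch, were picked from the list after their values were seen. Log2 fold changes were -0.46 for Id1, -0.30 for Id2, -0.58 for Id3, -0.28 for Id4 and -0.84 for Heyl, and limma adjusted p-values ran from 0.054 for Heyl to 0.283 for Id4. Heyl was called in 9 of 20 other fits, among them DESeq2 (adjusted p 0.0020), sample weights (0.0017) and limma without 3xTg replicate 1 (-1.05, adjusted p 0.0087). Id3 was called by DESeq2 (adjusted p 0.00996), with sample weights (0.0033) and without 3xTg replicate 1 (-0.71, 0.0146), and Id1 only in the last of these (-0.51, 0.0396). Without that library 6 genes of the list were called lower and 1 higher, beside 5.74% and 5.14% of all tested genes.

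Genes reported elsewhere as targets of the 10 factors showed little shift as a list: of 27 tested, 12 were above and 15 below 0, with a median of -0.03. Wnt7a, a Wnt ligand that Nr2e1 is known to activate in neural stem cells, was the 1 called. It went from 7370 ± 935 to 5031 ± 400 (log2 fold change -0.55, SE 0.12, limma adjusted p 0.044). Its call was lost in 9 of 20 other fits, among them those without the GC trend (-0.40, adjusted p 0.080) and without NTG replicate 1 (adjusted p 0.149), NTG replicate 3 (0.083) and those lacking 3xTg replicate 2 (0.190) or 3xTg replicate 3 (0.188), these last at log2 fold changes of -0.48 to -0.53. Cdkn1a, which Nr2e1 represses, had a limma log2 fold change of -0.13, and Gfap, an astrocyte gene under Nfia and Nr2e1, one of 0.04, and neither passed the test.

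Of 30 radial glia markers the median was -0.02 and 1 passed: Wnt8b, a Wnt ligand of the hippocampal field, fell from 238 ± 77 to 84 ± 10 (log2 fold change -1.44, SE 0.26, limma adjusted p 0.020). Its call was lost without 3xTg replicate 2 (adjusted p 0.061) and without 3xTg replicate 3 (0.083). The 25 proneural and neuroblast genes had a median of 0.18 with 17 above 0, and none was called by limma, with 3 at an unadjusted p under 0.05, none by edgeR and 1 by DESeq2. Neurod4, a proneural factor, stood at 0.85 (limma adjusted p 0.105). Eomes, which marks intermediate progenitors, had 975 ± 132 and 1420 ± 385, and Dcx, which marks neuroblasts, 2484 ± 509 and 3839 ± 1310, both named after their values were seen. The 24 proliferation genes had a median of 0.23 with 23 above 0, and again limma and edgeR called none, with 3 at an unadjusted p under 0.05 and 1 called by DESeq2. Top2a, which untangles replicated DNA, stood at 0.77 (limma adjusted p 0.111) and Mki67, a marker of cycling cells named after its value was seen, at 0.56. Without 3xTg replicate 1 the counts called higher were 6 of 25 and 5 of 24, beside 5.14% of all tested genes. With all libraries, 23.5% of all tested genes had an unadjusted limma p under 0.05.

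Markers of other cells moved beside these values. For comparison, 23.5% of all tested genes had an unadjusted limma p under 0.05. Of all genes 4.1% were called lower by DESeq2, 5.74% by limma without 3xTg replicate 1 and 7.54% with sample weights. All 12 endothelial markers lay below 0 (median -0.76), and their sum was 8485 to 10636 normalized counts in NTG and 4179 to 6998 in 3xTg. Tie1 (-1.39), Eng (-1.15) and Cldn5 (-1.29), genes of vessel lining, were called lower, 11 of the 12 had an unadjusted limma p under 0.05, and DESeq2 called 9, limma without 3xTg replicate 1 called 8 and limma with sample weights all 12. The 9 tested pericyte and smooth muscle markers lay below 0 as well (median -1.22, sums of 35886 to 45534 and 19782 to 33887), with Rgs5 (-1.18) and Higd1b (-1.55) called. Of these 9, 8 had an unadjusted p under 0.05, DESeq2 called 2 and limma without 3xTg replicate 1 called 8. The 7 tested fibroblast and meningeal markers lay below 0 too (median -0.48), and the sums of the list were 5215 to 11852 and 5771 to 6921. Mgp (-1.83) was called, and DESeq2 and limma without 3xTg replicate 1 each called 3 of the 7. All 10 microglia markers lay below 0 (median -0.26), with sums of 7839 to 9431 and 6135 to 8266 and P2ry12 (-0.73) called. In the oligodendrocyte lineage list (median 0.04) Cspg4 (-0.87), a gene of its precursors, was called, and the sums were 335893 to 728650 and 647745 to 693347. Without 3xTg replicate 2 none of these 8 genes passed, with limma adjusted p-values of 0.053 to 0.218, and Tie1 alone passed without 3xTg replicate 3 and without NTG replicate 1. Tie1 and Rgs5 passed without NTG replicate 2, and these along with P2ry12 and Cspg4 without NTG replicate 3. Calls were also lost by edgeR for Mgp (adjusted p 0.052), Cldn5 (0.055) and Higd1b (0.061), by DESeq2 for Higd1b (0.053), and without the GC trend for Cspg4 (-0.62, limma adjusted p 0.154). In the remaining lists limma and edgeR called no gene. The 12 mature astrocyte markers had a median of -0.16, 1 gene at an unadjusted p under 0.05 and none by DESeq2, with Agt at -0.43. The 12 mature neuron markers had a median of -0.27, 6 genes at an unadjusted p under 0.05 and 3 by DESeq2, with Nrgn at -1.32. The 8 ependymal markers had a median of 0.17, 1 gene at an unadjusted p under 0.05 and 1 by DESeq2, with Tmem212 at 0.71, and sums of 4050 to 6237 and 5358 to 6202. No marker of these lists was at 0 in all libraries. The part of these cells in the values of the 10 factors was not tested.

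**Figure D5:**
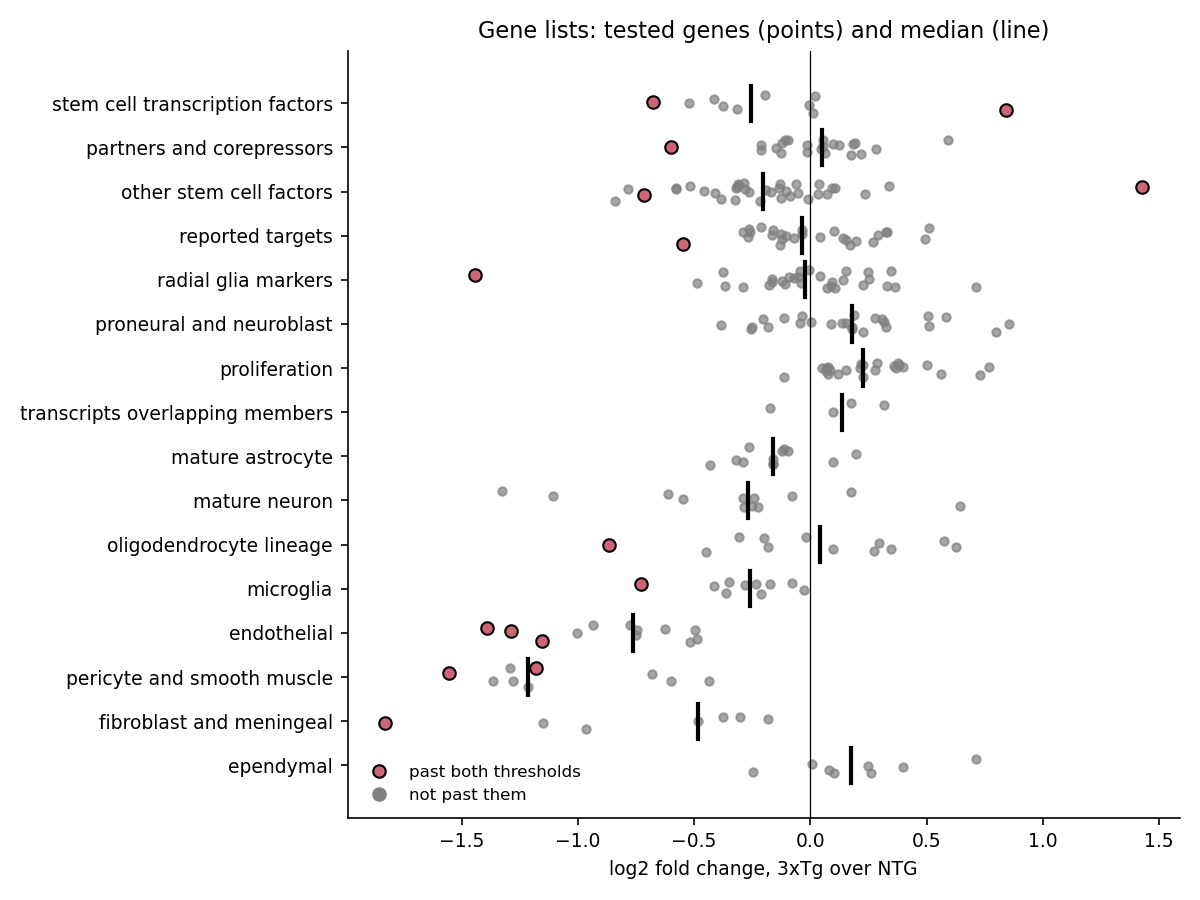
Log2 fold changes (3xTg over NTG) of all tested genes of each list, 1 point per gene, with the list's median as a black line and genes past both thresholds in red. The stem cell transcription factors (top) have a median of -0.26. The endothelial and the pericyte lists, at -0.76 and -1.22, lie wholly below 0. So do the fibroblast and meningeal list (-0.48) and the microglia list (-0.26).

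Genes beside the 10 factors were looked at because the library kit does not mark strand. Of 34 genes that overlap a factor or stand next to it, 30 were tested, and limma and edgeR called none, with 7 at an unadjusted p under 0.05 and 1 called by DESeq2. The 7 are near the share over all tested genes, of which 23.5% had such a p. Ostm1, whose gene lies 190 bases from Nr2e1, had a log2 fold change of -0.06 (limma adjusted p 0.78), and Snx3, on its other side, -0.03 (0.89). E130114P18Rik shares exon sequence with Nfia on the opposite strand, so that reads of the pair could not be told apart there. It had 1251 ± 50 normalized counts in NTG and 1585 ± 131 in 3xTg, a log2 fold change of 0.34 (limma adjusted p 0.121), and lay higher in every 3xTg library. Without the GC trend it was at 0.18 (limma adjusted p 0.275). Its mean count was below that of Nfia in both groups. The neighbours on either side of Nfia, Tm2d1 and Gm12676, had values of 0.37 (limma adjusted p 0.095; 0.21 without the GC trend) and 0.08 (0.91).

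Of the genes that overlap a factor, 10 were tested, and limma, edgeR and DESeq2 called none. At an unadjusted p under 0.05, as for 23.5% of all tested genes, stood 3: E130114P18Rik and a pair of antisense transcripts at Lhx2. The pair, named after its values were seen, was low, with Gm27197 at 43.2 ± 8.7 normalized counts in NTG and 80.1 ± 18.2 in 3xTg (log2 fold change 0.86, SE 0.29, limma adjusted p 0.124) and Gm13584 at 12.5 ± 0.8 and 23.7 ± 4.3 (0.85, SE 0.35, limma adjusted p 0.179). Both were higher in every 3xTg library, and Gm27197 was called without 3xTg replicate 1 (1.06, adjusted p 0.044). Of a list of 5 noncoding transcripts 4 were found, none of them at an unadjusted p under 0.05. Sox2ot, within which Sox2 lies, had a log2 fold change of 0.10, Emx2os 0.18, Pax6os1 0.31 and Hopxos -0.17. The ratio of Sox2 to Sox2ot counts was 5.19, 4.52 and 6.04 in NTG and 4.75, 3.60 and 2.86 in 3xTg. That of Emx2 to Emx2os was 1.73, 2.29 and 1.75 in NTG and 1.41, 1.38 and 1.64 in 3xTg, with no overlap. Both ratios were chosen after the values were seen and were not tested, and Emx2 and Emx2os share exon sequence on opposite strands.

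Within 1 Mb of Nr2e1, 21 genes were tested, and Foxo3 lies among them, 285208 bases away (chr10:42181841-42276755). The gene 9930024M15Rik, 732842 bases away, fell from 111 ± 40 to 34.6 ± 10.3 (log2 fold change -1.62, limma adjusted p 0.0405), a call lost without NTG replicate 1 or 2 or 3xTg replicate 2 or 3 (adjusted p 0.076 to 0.154). The median over the 21 genes was 0.06. Near Nfia 9 genes were tested, with a median of 0.34, and the medians of the windows around the other 8 factors ran from -0.05 at Nfix to 0.31 at Pax6. The called genes in those were Igfbp7 near Hopx, a secreted protein of vessels, with 2374 ± 210 in NTG and 981 ± 594 in 3xTg (-1.43, limma adjusted p 0.044), and Gm17150 near Emx2, with 22.2 ± 6.0 and 2.87 ± 1.51 (-2.64, limma adjusted p 0.024). The call of Igfbp7 was lost by edgeR (0.062), by DESeq2 (0.066) and without any 1 library other than 3xTg replicate 1, and that of Gm17150 without NTG replicate 1 or 3 or 3xTg replicate 2 or 3 (0.056 to 0.097). These windows were looked at after the values were seen.

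Among 13172 genes with a mean of at least 100, the log2 levels most like those of Nr2e1 over the 6 libraries were those of Col4a6, a basement membrane collagen (Pearson's r 0.996), Mmrn2, a protein of vessel lining (0.993), and Opa3, a mitochondrial protein (0.991). Mmrn2 had 176, 222 and 220 normalized counts in NTG and 98.0, 89.4 and 78.8 in 3xTg (log2 fold change -1.20, limma adjusted p 0.017), and its call was lost without NTG replicate 2 and without either of 3xTg replicates 2 and 3 (adjusted p 0.064 to 0.089). In all, 111 genes had an r above 0.95 with Nr2e1. Sox2 was most like Mrpl11 (0.995), Ift22 (0.992) and Ptges2 (0.989), with 49 genes above 0.95. Hopx was most like Brf2 (0.995), Slc25a47 (0.982) and Gm9347 (0.982), with 44 genes above 0.95. With 6 libraries and this many genes such values describe the libraries alone.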

How the data were processed

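Bulk RNA-seq of YFP-positive SGZ cells was read from 1 table of 6 libraries (3 NTG, 3 3xTg), all used, with groups taken from the sample titles. RNA was made into SMART-Seq V4 cDNA and Nextera XT libraries. Reads had been aligned by the authors to mm10 (GRCm38) using HISAT2 and assigned to genes using featureCounts. The deposited signal is these counts after DESeq2 normalization, here called normalized counts; tool versions are not given in the sources used here. Dividing by 1 factor per library gave whole reads for 100% of values (tolerance 0.01). The deposited log2 fold changes (NTG over 3xTg), standard errors, test scores, p-values and weights of the authors' own comparison were not used. No column of per-sample values was left unassigned. Depth was 32731794 to 81800375 assigned reads per library. For the 10 factors counting error alone gave a coefficient of variation of 0.507% to 2.61% per library, which came to 62.4% of the variance between libraries for Pax6 in 3xTg and 51.6% for Emx2 in NTG and to at most 12.2% otherwise; reads without molecular identifiers are not independent molecules, so that this covers counting error only.

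Positions, exon lengths and the GC content of the longest transcript came from GENCODE M21, which held 55230 of the 55471 genes. The limma test (3.58.1, R 4.3.3, trend fitted) ran on log2(normalized count + 1) where the mean reached 10, with p-values adjusted over all 18664 genes. Fold changes on this scale understate those of low genes. Recovered reads were tested with edgeR 4.0.16 and DESeq2 1.42.0. The p-values measure the spread between these libraries. In simulated data of 18664 genes with 200 changed, each tool was checked to recover the direction of all genes it found. The replicate numbers are shared by both groups. After the group means were removed, same-numbered libraries correlated at 0.06, 0.20 and 0.04, and libraries of different numbers at -0.18 to 0.11. These values do not settle whether the numbers pair libraries. Settings varied besides were the scaling, the filter, the count added, the fold threshold, weights per sample, thinned reads, the GC trend and each library left out. Removal of the GC trend without 3xTg replicate 1 was added after the data were seen. Plots came from matplotlib 3.10.9 and tables from pandas 2.3.3, scipy 1.17.1 and numpy 2.4.6 under Python 3.11.15.

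The 10 factors and the 15 gene lists were chosen with earlier results of these data known. Named were all 10 factors, the called genes of each list (at most 5) and its largest change, the 3 genes most like Nr2e1, Sox2 and Hopx, and genes beside a factor, of which only those beside Nr2e1 and Nfia and the noncoding transcripts over a locus are named. Other genes were chosen after their values were seen, as were all ratios but that of Hopx to Sox2, the NFI shares and the windows of 1 Mb. These include the corepressors and targets of Nr2e1 given beside those called. Promoter sequences are those of RefSeq (GRCm38.p6), in which 8 of the 10 factors were matched. Some items are not reported here.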

Additional observations from a re-analysis of the deposited data

How the results depend on the processing

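Of the 10 factors, Nfia was called in all of 20 other fits and Nr2e1 in 19; with a log2 fold threshold of 1 neither was (0 higher and 0 lower), and 103 genes in all were higher. DESeq2 called 598 genes higher and 735 lower with 2 factors lower, sample weights 1196 and 1408 with 3, and removal of the GC trend without 3xTg replicate 1 gave 476 and 714 with 2. With a mean of at least 50, 193 genes were lower. With 1 library left out, genes called ranged from 49 to 959 higher and from 106 to 1071 lower, and factors called lower from 0 (without 3xTg replicate 3) to 3 (without 3xTg replicate 1). The sign of the Hopx to Sox2 difference turned without 3xTg replicate 3 (-0.022). Signs also turned for genes near 0: Pax6 with sample weights (0.11) and with libraries left out (-0.10 to 0.12); Nfib with upper quartile scaling (-0.030), without the GC trend (-0.15), with 3xTg replicate 1 left out as well (-0.058) and with libraries left out (-0.064 to 0.15); Nfix with upper quartile scaling (-0.022) and libraries left out (-0.11 to 0.10); Snx3 without the GC trend (0.058, or 0.046 with 3xTg replicate 1 left out too) and with libraries left out (-0.068 to 0.050); Ostm1 with libraries left out (-0.15 to 0.011); Sox2ot without the GC trend (-0.062, or -0.064 with 3xTg replicate 1 left out too); Hopxos with both removed (0.047); and Gm12676 with sample weights (-0.37), with the GC trend and 3xTg replicate 1 removed (-0.065) and with libraries left out (-0.16 to 0.31). The cause of these shifts was not tested. The median log2 fold change of all genes stayed within -0.03 and 0.03 under every scaling.

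With the replicate number as a block, 302 genes were called higher and 450 lower, and the same 2 factors passed (Nr2e1 adjusted p 0.0129, Nfia 0.0027), as they did with the GC trend removed in the same fit (0.0156 and 0.0068, with Nfib at -0.15, Snx3 at 0.058 and Sox2ot at -0.062). Whether these numbers pair libraries was not settled.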
